A study of Homo sapiens with 12 samples.

Results

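The 10 genes described here carry iron into the cell, store it, sense it and let it out. They are TFRC, TFR2, STEAP3, SLC11A2, SLC25A37, FTH1, FTL, ACO1, IREB2 and SLC40A1, out of 60671 genes in the count table. They were chosen by their known function, but with earlier results of these data known. All 10 had enough reads to be among the 18626 genes tested. RNA sequencing was run on 12 samples of K562, a human chronic myeloid leukemia line with erythroid features, and of its derivatives, with 4 samples per line. The first group was parental K562 cells. K/VP.5 cells are a clone obtained from K562 by intermittent and then continuous selection in etoposide, a drug that poisons DNA topoisomerase II. K562/SSedit-2 cells, the edited clone, are a single clone of K562 in which CRISPR/Cas9 with a repair template altered the 5′ splice site of intron 19 in most, but not all, copies of the gene for that enzyme, TOP2A. All lines were grown in DMEM with 10% fetal bovine serum and taken in mid-log phase, and the sources used here give no drug treatment of the sequenced cells. Since each derivative is 1 clone, what etoposide or the edit does cannot be told apart from what sets one clone apart from another. The labels do not say whether the replicates came from separate cultures, so p-values measure only the spread between these samples.

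Iron enters most proliferating cells bound to transferrin, which is taken up by the transferrin receptor, reduced in the endosome and moved to the cytosol, and from there it goes to mitochondria for heme and iron-sulfur clusters, to ferritin for storage or out through ferroportin. Erythroid cells such as K562 need much iron for heme. The balance is set largely after transcription: when iron is scarce, the iron regulatory proteins bind a hairpin called the iron-responsive element (IRE), which blocks translation when it lies in the 5′ untranslated region of a transcript and protects the transcript from decay when it lies in the 3′ untranslated region. Gene counts measure the amount of mRNA and not its translation, and they cannot tell fewer cells of a kind from less RNA per cell.

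The IREs found by a search are shown because iron is known to act through them on the transcripts that hold them. In the GRCh38 sequence, the untranslated regions of every protein-coding GENCODE transcript of the 10 genes were searched on the transcript strand. The motif was an unpaired C, 5 bases, the loop CAGTGN and 5 bases able to pair with the first 5 (G with U allowed). The bulged C and the loop are in capitals, and 6 more bases are shown on either side of the hairpin. FTH1, FTL and SLC40A1 each held 1 match in the 5′ untranslated region, at chr11:61967574-61967602 (minus strand), chr19:48965335-48965363 (plus strand) and chr2:189580661-189580689 (minus strand):
FTH1: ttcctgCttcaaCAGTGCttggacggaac
FTL: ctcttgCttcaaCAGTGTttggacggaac
SLC40A1: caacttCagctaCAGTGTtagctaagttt
TFRC held 4 matches in the 3′ untranslated region, all on the minus strand, at chr3:196050463-196050491, chr3:196050510-196050538, chr3:196050575-196050603 and chr3:196050979-196051007 in this order:
TFRC site 1: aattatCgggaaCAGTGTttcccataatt
TFRC site 2: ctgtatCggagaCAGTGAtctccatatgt
TFRC site 3: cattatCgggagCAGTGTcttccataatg
TFRC site 4: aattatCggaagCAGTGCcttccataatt
FTH1 and FTL shared the 5 bases before the loop and the bases after its last position, while the TFRC sites had arms of their own. Among canonical transcripts of all genes, 0.0988% of 19224 5′ untranslated regions and 0.629% of 19229 3′ untranslated regions held a match. TFR2, STEAP3, SLC11A2, SLC25A37, ACO1 and IREB2 held none, which says only that these letters are not in their annotated untranslated regions. The search also found none in EPAS1 and CDC42BPA, both known for an IRE, while it did in ALAS2 and CDC14A, so a gene without a match, SLC11A2 included, is not shown to lack an IRE.

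Total counts ranged from 28981722 to 43648830 per sample, and the lowest count of any of the 10 genes in any sample was 937. Levels are given in CPM, the count of a gene scaled to one common library size with TMM factors. K562 replicate 1 stood apart: its mean correlation with the other samples of its line was 0.986, against 0.989 to 0.994 for the other 11 samples, and results that turn on it are given with and without it. Of 11 markers of K562 and erythroid cells all were detected, and their summed level was 2246 to 2447 CPM in parental samples, 2318 to 2679 in K/VP.5 samples and 2333 to 2771 in those of the edited clone. Of 6 markers of other cell types, EPCAM and CD3D made up nearly all of a summed 181 to 249 CPM in parental samples, 134 to 146 in K/VP.5 samples and 205 to 238 in those of the edited clone. The B cell marker MS4A1 had no count in K/VP.5 and K562/SSedit-2 and at most 2 in a K562 sample, and CD3E and CD14 had at most 17 in any sample. The part of these markers in the results was not tested. TOP2A, the edited gene, was at 402 ± 59.1 CPM (SD, n = 4) in the parental line, 275 ± 7.50 in K/VP.5 and 192 ± 16.0 in the edited clone, with no overlap between lines.

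In K/VP.5, set against the parental line, the transferrin receptor TFRC, the endosomal reductase STEAP3, the ferritin light chain FTL and the exporter SLC40A1 fell, with the call for FTL resting on 1 K562 sample, and the mitochondrial importer SLC25A37 rose, all by less than 2-fold. In the edited clone, set against the same parental line, TFRC and SLC25A37 rose and STEAP3 fell. The clones thus differed from each other in TFRC, SLC25A37 and SLC40A1, all higher in the edited clone. The iron regulatory proteins ACO1 and IREB2, the second transferrin receptor TFR2, the importer SLC11A2 and the ferritin heavy chain FTH1 did not pass the test in any comparison.

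These calls rest on edgeR's quasi-likelihood test at an adjusted p below 0.1. In K/VP.5 against the parental line, 1 of the 10 genes was higher and 4 were lower, where 26.2% of all tested genes were higher and 26.1% lower. In the edited clone against the parental line, 2 were higher and 1 lower, where 4.86% of all tested genes were higher and 7.79% lower. In the edited clone against K/VP.5, 3 were higher and none lower, where 26.2% of all tested genes were higher and 27.8% lower. In either direction, 5, 3 and 3 of the 10 iron genes were called in these comparisons, against 52.3%, 12.6% and 54.0% of all tested genes, so the count in either comparison with K/VP.5 was no higher than the background. Each pair of comparisons shares the 4 samples of 1 line, so they are not independent of each other.

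None of the 10 genes passed the study's cutoff of a 2-fold change at 10% false discovery rate, in any comparison, by edgeR, DESeq2 or limma voom. Over all tested genes 15.6% passed it in K/VP.5 against the parental line, 2.06% in the edited clone against the parental line and 15.8% in the edited clone against K/VP.5. At an unadjusted p below 0.05 the iron genes numbered 5, 3 and 3, where 51.9%, 22.7% and 53.3% of all tested genes were below it. Their median absolute log2 fold change was 0.25, 0.21 and 0.11 in these comparisons, beside 0.33, 0.16 and 0.34 over all tested genes. The samples of the compared lines did not overlap for 4, 3 and 4 of the 10 genes, where this held for 43.0%, 13.2% and 47.4% of all tested genes.

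**Figure D1:**
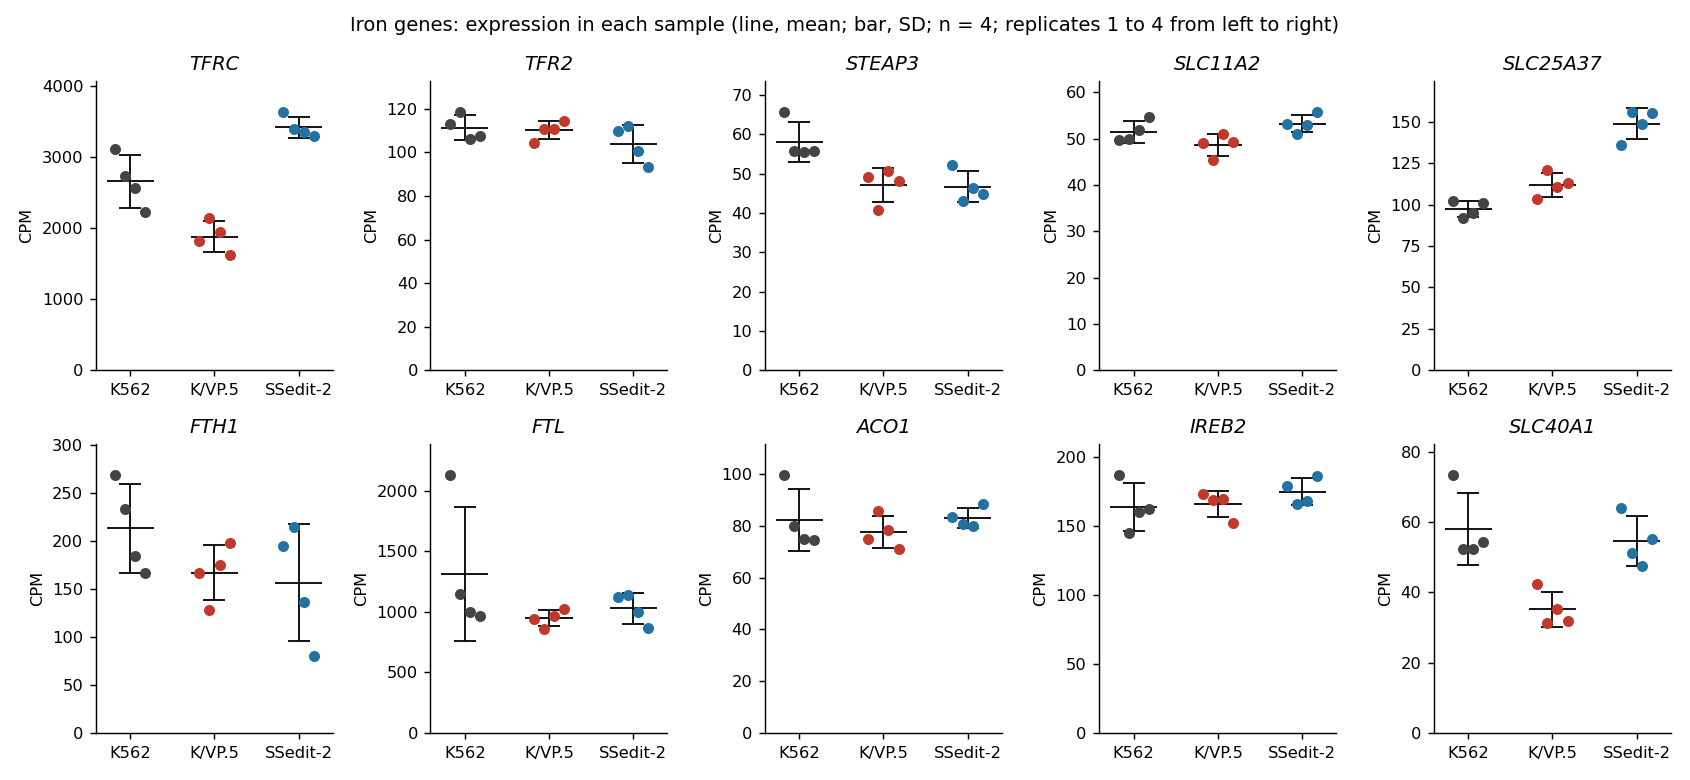
Expression of the 10 iron genes in CPM (linear axis from 0) in each sample of K562, K/VP.5 and the edited clone (labelled SSedit-2), with points for replicates 1 to 4 from left to right, a line at the mean and bars of 1 SD (n = 4). TFRC and SLC25A37 take a different level in each line with no overlap, SLC40A1 is lowest in K/VP.5, and K562 replicate 1 is far above the other K562 samples for FTL (2132 against 966 to 1149 CPM).

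Per kilobase of the canonical transcript, the scale on which genes may be compared, FTL was the most abundant of the 10 in each line, at 1505, 1088 and 1183 CPM per kb in the parental line, K/VP.5 and the edited clone. TFRC came next, at 531, 375 and 682 CPM per kb, and then FTH1, at 177, 139 and 129.8. The FTH1 level is uncertain, since its count depends on how reads matching several places were treated. The other 7 genes lay between 10.4 and 38.6 CPM per kb, led by TFR2 in each line. Without the correction for length, TFRC held rank 11 among all tested genes by mean CPM in the parental line, rank 23 in K/VP.5 and rank 8 in the edited clone.

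TFRC (ENSG00000072274, chromosome 3, 196012511 to 196082153, minus strand) encodes the receptor that brings transferrin-bound iron into the cell. Its level in replicates 1 to 4 was 3122, 2729, 2564 and 2222 CPM in the parental line. In K/VP.5 cells it was 1813, 2139, 1941 and 1628 CPM. In the edited clone it was 3636, 3398, 3348 and 3293 CPM. Every K/VP.5 sample was below every K562 sample, and every K562/SSedit-2 sample above every one of both other lines. The mean fell by 29.3% in K/VP.5 relative to the parental line (log2 fold change −0.50, SE 0.095, adjusted p = 0.000372) and rose by 28.6% in the edited clone (0.36, SE 0.095, adjusted p = 0.027). Between the clones the log2 difference was 0.86 (SE 0.095, adjusted p = 1.32e-06), with a 95% interval from 0.66 to 1.06. Without K562 replicate 1, the highest K562 sample, the log2 fold change was −0.44 in K/VP.5 (adjusted p = 0.00019) and 0.45 in the edited clone (adjusted p = 0.00138).

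Genes near TFRC were also lower in K/VP.5. Of 46 tested genes within 1 Mb of it, 25 were lower and 2 higher in K/VP.5 than in the parental line, where 26.1% of all tested genes were lower and 26.2% higher, and their median log2 fold change was −0.37. The median of the same neighbours was 0.06 in the edited clone against the parental line, with 4 higher and 1 lower, where 4.86% of all tested genes were higher and 7.79% lower. The part of the neighbourhood in the TFRC difference was not tested. An unnamed antisense gene that overlaps TFRC had 0.0252% of its counts.

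TFR2 (ENSG00000106327, chromosome 7, 100620416 to 100642779, minus strand) encodes a transferrin receptor of lower affinity that serves in iron sensing in liver and erythroid cells. Its level was 111 ± 5.58 CPM in the parental line, 110.2 ± 4.08 in K/VP.5 and 104 ± 8.77 in the edited clone (SD, n = 4), and the samples of all lines overlapped. Its log2 fold change was −0.02 in K/VP.5 against the parental line (95% interval −0.16 to 0.13), with the sign turned under upper-quartile scaling, and −0.10 in the edited clone against the parental line (−0.24 to 0.05). Neither passed the test (adjusted p = 0.865 and 0.439). Per kilobase, the TFRC level was 13.7 ± 1.67 times that of TFR2 in the parental line, 9.84 ± 1.20 times in K/VP.5 and 19.0 ± 1.19 times in the edited clone. These ratios did not overlap between lines.

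STEAP3 (ENSG00000115107, chromosome 2, 119223831 to 119265652, plus strand) encodes the ferrireductase of erythroid endosomes, which reduces the iron released from transferrin. Its level was 65.6, 55.7, 55.4 and 55.6 CPM in the parental line, 49.1, 40.8, 50.6 and 48.2 in K/VP.5. The edited clone had 52.2, 43.1, 46.3 and 44.9 CPM. All samples of both clones were below all K562 samples. The log2 fold change against the parental line was −0.30 in K/VP.5 (SE 0.086, adjusted p = 0.00912) and −0.32 in the edited clone (SE 0.086, adjusted p = 0.0329). The clones differed from each other by −0.02 (95% interval −0.20 to 0.17). The difference in the edited clone missed the threshold without K562/SSedit-2 replicate 2 (−0.27, adjusted p = 0.109). Without K562 replicate 1, the sample of highest STEAP3, it was −0.25 (adjusted p = 0.044). The overlapping antisense transcript STEAP3-AS1 had 2.92% of the STEAP3 counts.

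SLC11A2 (ENSG00000110911, chromosome 12, 50979401 to 51028566, minus strand) encodes DMT1, which moves ferrous iron from the endosome into the cytosol. Its level was 51.5 ± 2.37 CPM in the parental line, 48.6 ± 2.38 in K/VP.5 and 53.2 ± 1.91 in the edited clone (SD, n = 4), among the most even of the 10 genes. Its log2 fold change was −0.08 in K/VP.5 (95% interval −0.22 to 0.05) and 0.05 in the edited clone against the parental line (−0.09 to 0.18). All K562/SSedit-2 samples, 51.1 to 55.7 CPM, were above all K/VP.5 samples, 45.3 to 50.9, and the difference of 0.13 narrowly missed the threshold (SE 0.063, adjusted p = 0.102). It passed in 8 of 18 alternatives, among them DESeq2 (adjusted p = 0.0831), a fit of only the compared lines (0.0733) and the replicate block (0.0887), and over all 18 the adjusted p ranged from 0.0733 to 0.368.

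SLC25A37 (ENSG00000147454, chromosome 8, 23528956 to 23575463, plus strand) encodes mitoferrin-1, which imports iron into mitochondria for heme in erythroid cells. Its level was 102, 91.8, 94.96 and 101 CPM in the parental line, 103, 121, 111 and 113 in K/VP.5. The edited clone had 136, 156, 149 and 155 CPM. The 3 lines did not overlap and rose in order from parental cells through K/VP.5 to the edited clone. The mean was 14.9% higher in K/VP.5 than in the parental line (log2 fold change 0.20, SE 0.068, adjusted p = 0.0239) and 52.9% higher in the edited clone (0.61, SE 0.068, adjusted p = 2.19e-05), and the clones differed by 0.41 (SE 0.068, adjusted p = 9.31e-05). The smaller difference, in K/VP.5, missed the threshold without K562 replicate 2 (0.15, adjusted p = 0.105). The median log2 fold change of its 24 tested neighbours within 1 Mb was 0.04 in K/VP.5 and 0.03 in the edited clone against the parental line. Among the 11 markers of K562 and erythroid cells, 5 were higher and 1 lower in K/VP.5, and 6 were higher and 1 lower in the edited clone, where 52.3% and 12.6% of all tested genes were called in either direction. Their part in the SLC25A37 difference was not tested.

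**Figure D2:**
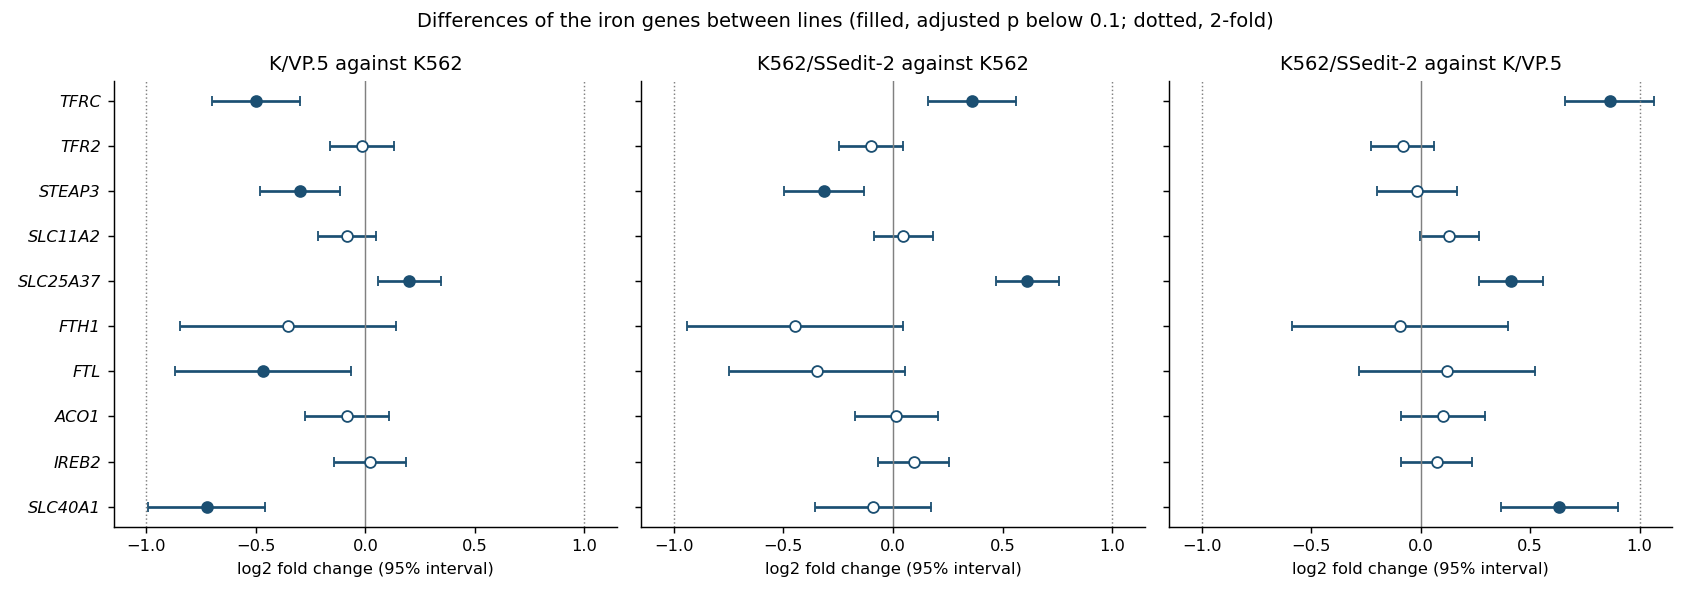
Log2 fold change of the 10 iron genes (points) with 95% intervals (bars) in K/VP.5 against the parental line, the edited clone against the parental line and the edited clone against K/VP.5, with filled points at an adjusted p below 0.1 (edgeR) and dotted lines at 2-fold. No point reaches 2-fold, TFRC between the clones (0.86) comes nearest, and the ferritin genes FTH1 and FTL have the widest intervals.

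FTH1 (ENSG00000167996, chromosome 11, 61959718 to 61967634, minus strand) encodes the ferritin heavy chain, the subunit that oxidizes iron for storage. Its level was 269, 233, 184 and 167 CPM in the parental line. In K/VP.5 cells it was 167, 128, 174 and 197 CPM, and in the edited clone 195, 215, 136 and 79.7 CPM. The 3 lines overlapped, and K562/SSedit-2 samples spread over most of the range of the other lines, with a coefficient of variation of 39.0%, where the median over 8882 genes of at least 10 CPM was 7.39% in that line. The log2 fold change was −0.35 in K/VP.5 (SE 0.233, adjusted p = 0.235) and −0.45 in the edited clone against the parental line (SE 0.233, adjusted p = 0.275). Intervals of −0.85 to 0.14 and −0.94 to 0.05 both included 0. Fitted on the K562 and K/VP.5 samples alone, the first difference passed the threshold (−0.36, SE 0.149, adjusted p = 0.0687). It also passed with no filter on low counts (−0.37, adjusted p = 3.35e-05), where the SE was smaller, at 0.0810. Without K562/SSedit-2 replicate 4, the lowest sample, the difference from the parental line shrank from −0.45 to −0.21 (adjusted p = 0.594) and that from K/VP.5 turned from −0.09 to 0.13 (adjusted p = 0.583).

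FTH1 has many processed pseudogenes of nearly the same sequence, so its count depends on how reads that match several places were treated. Of 25 annotated FTH1 pseudogenes 18 had counts, and their summed level was 13.3 to 18.3 CPM, or 6.29% to 23.0% of the FTH1 count of the same sample. The pseudogene level was nearly even between samples while FTH1 was not: K562/SSedit-2 replicate 4 had the lowest FTH1 and the highest pseudogene level. Adding the pseudogene counts to FTH1 left log2 fold changes of −0.32 and −0.40 against the parental line, which did not pass the test either (adjusted p = 0.225 and 0.273).

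FTL (ENSG00000087086, chromosome 19, 48965309 to 48966879, plus strand) encodes the ferritin light chain, which helps form the mineral core. Its level was 2132, 1149, 995 and 966 CPM in the parental line. In K/VP.5 cells it was 941, 860, 967 and 1024 CPM, and in the edited clone 1123, 1136, 998 and 864 CPM. K562 replicate 1 was far above every other sample, and the other 3 K562 samples overlapped with both clones. The log2 fold change in K/VP.5 of −0.47 passed the threshold (SE 0.190, adjusted p = 0.0556), and it rested on that sample: without it the value was −0.15 (SE 0.089, adjusted p = 0.182). It also missed the threshold without K/VP.5 replicate 2 (−0.42, adjusted p = 0.122) and with DESeq2's Wald test (−0.47, adjusted p = 0.129). In the edited clone the log2 fold change was −0.35 (SE 0.190, adjusted p = 0.302), and −0.01 without K562 replicate 1 (SE 0.089, adjusted p = 0.971). The 16 FTL pseudogenes, 8 of them with counts, summed to 0.151% to 0.242% of the FTL count.

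Per kilobase, the FTH1 level was 0.124 ± 0.0236 of the FTL level in the parental line, 0.127 ± 0.0134 in K/VP.5 and 0.107 ± 0.0312 in the edited clone (SD, n = 4), which differed by less than the spread between samples. The TFRC level was 3.04 ± 0.280 times that of FTH1 in the parental line, 2.82 ± 0.851 times in K/VP.5 and 6.03 ± 2.74 times in the edited clone. All K562/SSedit-2 ratios, from 3.80 to 9.92, were above all K562 ratios, from 2.79 to 3.35. They overlapped with the K/VP.5 ratios, from 1.98 to 4.004. The FTH1 count depends on how reads matching several places were treated, so its ratios to FTL and TFRC are uncertain.

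**Figure D3:**
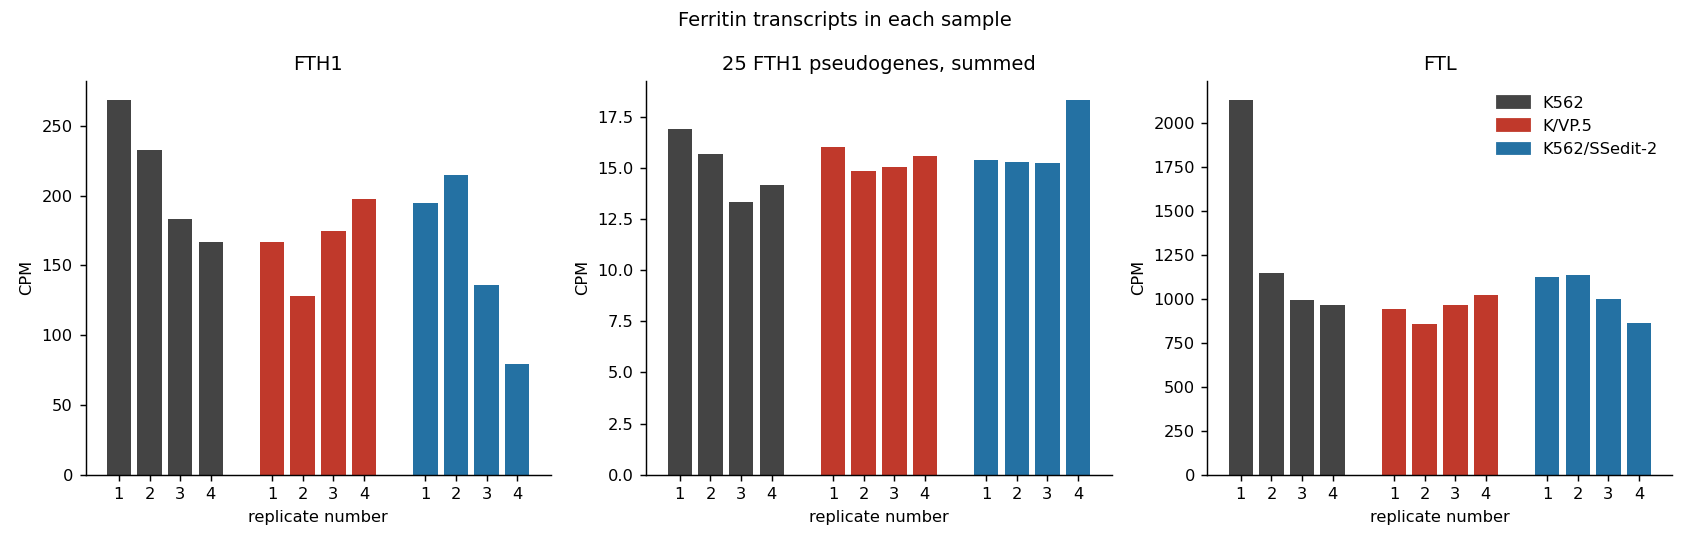
CPM (linear axes from 0) of FTH1, of its 25 annotated pseudogenes summed, and of FTL in each sample, with bars for replicates 1 to 4 of each line. The pseudogene sum stays between 13.3 and 18.3 CPM while FTH1 ranges from 79.7 to 269 CPM, and K562 replicate 1 alone lifts the K562 mean of FTL.

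The iron regulatory proteins are the sensors that bind the IREs printed above: ACO1 (ENSG00000122729, chromosome 9, 32384603 to 32454769, plus strand), which is a cytosolic aconitase when it holds an iron-sulfur cluster, and IREB2 (ENSG00000136381, chromosome 15, 78437431 to 78501453, plus strand), which is degraded when iron is plentiful. ACO1 was at 82.3 ± 11.9 CPM in the parental line, 77.6 ± 6.21 in K/VP.5 and 83.2 ± 3.91 in the edited clone (SD, n = 4). IREB2 was at 164 ± 17.6, 166 ± 9.24 and 175 ± 9.72 CPM. Samples of the lines overlapped for both genes in every comparison. The largest log2 fold change of either was 0.10, and all adjusted p lay between 0.388 and 0.949. The 95% intervals against the parental line were −0.28 to 0.11 and −0.18 to 0.21 for ACO1, and −0.14 to 0.18 and −0.07 to 0.26 for IREB2, in K/VP.5 and the edited clone. Per kilobase the IREB2 level was 2.36 ± 0.218, 2.53 ± 0.162 and 2.47 ± 0.0435 times that of ACO1 in the 3 lines. Without K562 replicate 1, IREB2 passed the threshold narrowly in the edited clone against the parental line (0.17, adjusted p = 0.0999).

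SLC40A1 (ENSG00000138449, chromosome 2, 189560590 to 189583758, minus strand) encodes ferroportin, the known exporter of iron from cells. Its level was 73.5, 52.2, 52.3 and 54.5 CPM in the parental line, 42.3, 31.2, 35.4 and 31.8 in K/VP.5. The edited clone had 64.1, 51.2, 47.7 and 55.1 CPM. Every K/VP.5 sample was below every sample of both other lines, which overlapped with each other. The mean fell by 39.5% in K/VP.5 relative to the parental line (log2 fold change −0.72, SE 0.126, adjusted p = 0.00017). K562/SSedit-2 exceeded K/VP.5 by 0.63 (SE 0.126, adjusted p = 0.000555) and differed from K562 by −0.09 (95% interval −0.36 to 0.17), or 0.04 without K562 replicate 1. Without that replicate the K/VP.5 difference was −0.61 (adjusted p = 7.07e-05). Of 17 tested neighbours within 1 Mb, 9 were lower and 1 higher in K/VP.5 than in the parental line, against 26.1% and 26.2% of all tested genes, with a median of −0.22, and their part in the result was not tested.

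**Figure D4:**
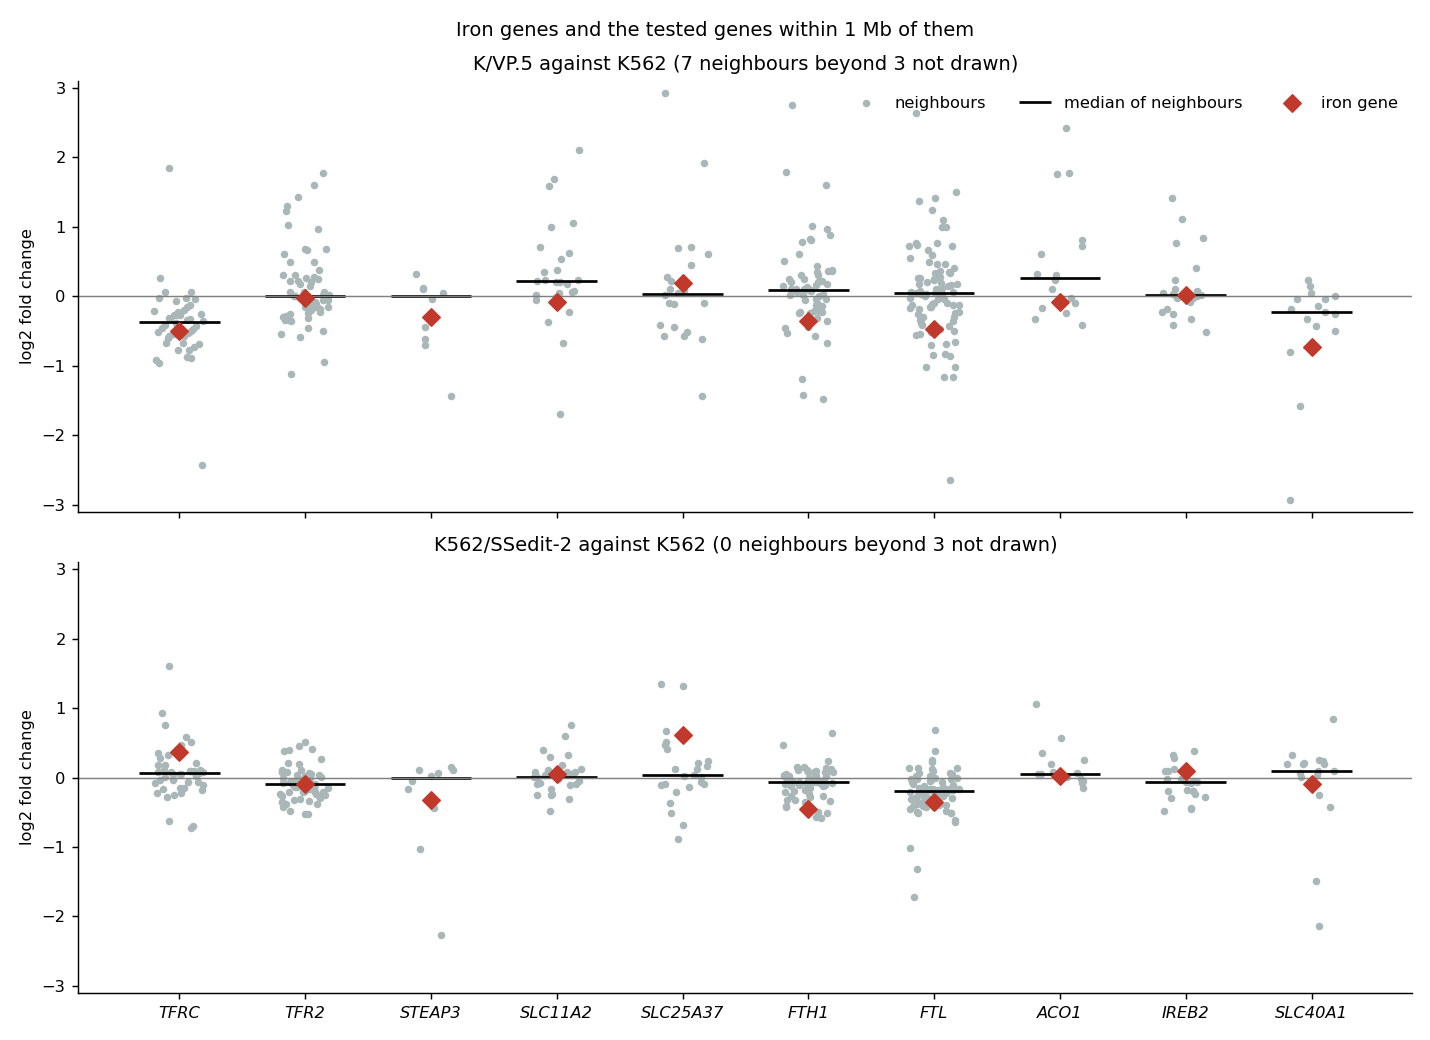
Log2 fold change of each iron gene (red diamonds) and of the tested genes within 1 Mb of it (grey points, black line at their median) in K/VP.5 and the edited clone against the parental line. The medians lie within 0.27 of 0 except around TFRC in K/VP.5, where the 46 neighbours have a median of −0.37 and TFRC itself is at −0.50.

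TFRC and SLC40A1, an importer and an exporter, were both lowest in K/VP.5 cells. Their log2 CPM, each centred on its own mean, differed by a root mean square of 0.26 over the 12 samples, and each was the nearest of the 10 genes to the other. Per kilobase the TFRC level was 30.7 ± 3.59 times that of SLC40A1 in the parental line, 36.1 ± 7.10 times in K/VP.5 and 42.0 ± 4.10 times in the edited clone. The ratio overlapped between K562 and K/VP.5, and all K562/SSedit-2 ratios, from 37.7 to 46.7, were above all K562 ratios, from 27.1 to 34.7. The nearest genes of all were ACO1 and IREB2, with a root mean square difference of 0.09. FTH1 was nearest to FTL, at 0.31.

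Of the 3 transcripts with a matched hairpin in the 5′ untranslated region, FTL and SLC40A1 passed the test in K/VP.5 against the parental line and FTH1 did not, where 52.3% of all tested genes passed. FTL did not pass without K562 replicate 1 (−0.15, adjusted p = 0.182) or with DESeq2 (adjusted p = 0.129), which leaves SLC40A1. None of the 3 passed in the edited clone against the parental line, at adjusted p of 0.302, 0.734 and 0.275 for FTL, SLC40A1 and FTH1. With no filter on low counts FTL (−0.37, adjusted p = 4.24e-05) and FTH1 (−0.47, adjusted p = 9.19e-07) passed there, and FTH1 passed in K/VP.5 (adjusted p = 3.35e-05). In the edited clone these fold changes were close to those with the filter, −0.35 and −0.45. The SE was smaller, at 0.0741 against 0.190 for FTL and 0.0810 against 0.233 for FTH1. With the filter but without K562 replicate 1, FTL in the edited clone was at −0.01 (adjusted p = 0.971). TFRC, with its 3′ hairpins, fell in K/VP.5 and rose in the edited clone.

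Other genes of iron biology were counted in 7 lists with 66 genes, of which 57 were tested. In K/VP.5 against the parental line 14 were higher and 22 lower, and 9 passed 2-fold, beside 26.2%, 26.1% and 15.6% of all tested genes. Between the edited clone and the parental line 7 were higher in the clone and 9 lower, and 2 passed 2-fold, beside 4.86%, 7.79% and 2.06%. Relative to K/VP.5, 25 were higher and 16 lower in the edited clone, and 4 passed 2-fold, beside 26.2%, 27.8% and 15.8%. The counts of the single lists that follow are to be read against the same shares. The medians were −0.07, −0.03 and 0.10 on the log2 scale, beside 0.01, −0.01 and −0.01 over all tested genes.

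Of 9 tested genes of the transferrin cycle and iron uptake, 3 were higher and 3 lower in K/VP.5, and 2 were higher and 2 lower in the edited clone than in the parental line. The reductase CYBRD1 was at 8.30 ± 0.988 CPM in the parental line, 19.6 ± 1.14 in K/VP.5 and 3.96 ± 0.530 in the edited clone (SD, n = 4). It thus rose in K/VP.5 (log2 fold change 1.24, adjusted p = 8.66e-08) and fell in the edited clone (−1.07, adjusted p = 1.86e-05). TF, which encodes transferrin itself, was low, at 1.13 ± 0.354 CPM in the parental line, and rose to 3.46 ± 0.321 in K/VP.5 (1.60, adjusted p = 4.37e-06) and to 1.78 ± 0.257 in the edited clone (0.64, adjusted p = 0.0677). STEAP1, a relative of STEAP3, fell from 3.17 ± 0.373 to 0.749 ± 0.193 CPM in K/VP.5 (−2.09, adjusted p = 6.57e-08) and was at 2.93 ± 0.200 CPM in the edited clone.

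FBXL5 senses iron and marks IREB2 for degradation. Of the 5 genes of its ubiquitin ligase and its activation, 1 was lower in K/VP.5 and 1 higher in the edited clone than in the parental line. The first was FBXL5 itself, at 33.5 ± 2.23 CPM in the parental line and 25.4 ± 1.99 in K/VP.5 (−0.40, adjusted p = 0.000479), and the second the ligase subunit RBX1 (0.42, adjusted p = 0.00185), both named after their values were seen. The scaffold CUL1 was at 128 ± 18.4, 115 ± 6.74 and 123 ± 12.6 CPM in the parental line, K/VP.5 and the edited clone, and SKP1, which joins it to FBXL5, at 116 ± 15.5, 103 ± 6.46 and 120.3 ± 5.66 CPM.

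Among 5 other transcripts known for an IRE, 2 were higher in K/VP.5, and 2 were higher and 1 lower in the edited clone than in the parental line. ALAS2, which starts heme synthesis in erythroid cells, rose from 33.9 ± 4.86 CPM in the parental line to 98.0 ± 5.79 in K/VP.5 (1.53, adjusted p = 3.33e-08) and 64.0 ± 11.8 in the edited clone (0.92, adjusted p = 0.000157). Of 5 tested iron chaperones and factors of ferritin turnover, 1 was higher and 2 were lower in K/VP.5, and none passed in the edited clone against the parental line at an adjusted p below 0.1. NCOA4, which carries ferritin to the lysosome, was at 301 ± 41.8, 333 ± 10.3 and 325 ± 10.1 CPM in the 3 lines, and HERC2, a ligase that acts on NCOA4, at 255 ± 46.5, 326 ± 17.7 and 296 ± 22.8 CPM.

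Of 16 tested genes of mitochondrial iron and iron-sulfur cluster assembly, 8 were lower and 3 higher in K/VP.5, and 2 were lower and 1 higher in the edited clone than in the parental line. Of 9 genes of cytosolic iron-sulfur assembly, 6 were lower and 1 higher in K/VP.5, and 3 were lower in the edited clone. The 1 that rose in K/VP.5 was NUBP1, a scaffold of that pathway, from 19.6 ± 2.24 to 52.0 ± 2.53 CPM (1.41, adjusted p = 8.38e-10).

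Of 8 tested genes of export, heme traffic and systemic control, 4 were higher and 2 lower in K/VP.5, and 1 was higher and 1 lower in the edited clone than in the parental line. The transporter ABCG2, which carries heme and drugs out of cells, was at 0.256 ± 0.114 CPM in the parental line, 10.1 ± 2.20 in K/VP.5 and 0.742 ± 0.343 in the edited clone. Its log2 fold change was 5.27 in K/VP.5 (adjusted p = 3.94e-10) and 1.502 in the edited clone (adjusted p = 0.0181), the latter between levels below 1 CPM. The heme transporter SLC48A1 fell from 62.5 ± 6.75 to 28.8 ± 1.19 CPM in K/VP.5 (−1.12, adjusted p = 7.41e-09). The 9 listed genes with too few counts to test included CP, HMOX1 and BOLA2, the last of which has a near-identical copy.

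**Figure D5:**
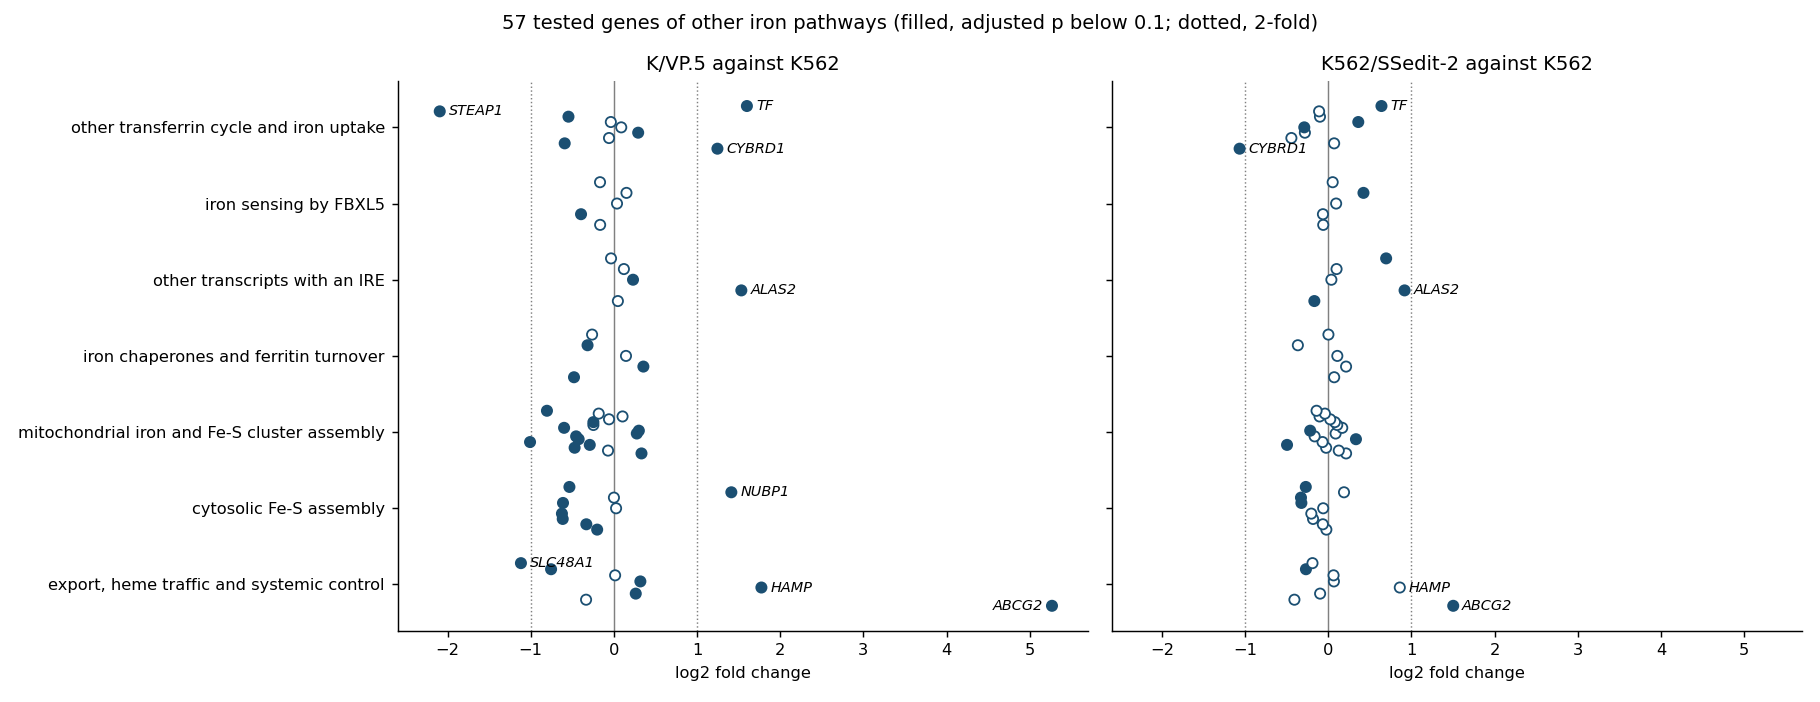
Log2 fold change of 57 tested genes in 7 lists of other iron pathways (rows, 1 point per gene) in K/VP.5 and the edited clone against the parental line, with filled points at an adjusted p below 0.1 and dotted lines at 2-fold. In K/VP.5 9 genes lie past 2-fold, led by ABCG2 at 5.27, and most called genes of iron-sulfur assembly lie left of 0.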

How the data were processed

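RNA-seq counts of 12 samples were used, with 4 samples of the parental line and 4 of each derived clone. The authors aligned paired-end reads to GRCh38 with HISAT2, counted them per gene with featureCounts and deposited whole-number counts without normalization. The annotation release, the strand setting and the treatment of reads matching several places are not given in the sources used here, so counts of FTH1, FTL and genes with antisense partners are uncertain. All 12 columns were mapped to samples by their labels, and 0 were left unmapped.

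The software was edgeR 4.0.16, with DESeq2 1.42.0 and limma 3.58.1 as alternatives, under R 4.3.3. Genes were kept by filterByExpr (minimum count 10), scaled by TMM and fitted together by line. Each pair of lines was then compared by the quasi-likelihood F test of edgeR, and p-values were adjusted by Benjamini and Hochberg's method across every gene tested. An SE was obtained by dividing the size of the log2 fold change by the root of its F statistic. Of 60671 gene IDs, 60401 were found in GENCODE 44, which gave symbols, positions and lengths. The fit was tested on simulated data.

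The iron genes, the lists and the tests were chosen with earlier results of these data known. All 10 genes are named, as are listed genes past 2-fold at a mean of at least 1 CPM in either compared line, and otherwise the 2 of highest mean CPM per list. The values of 2 listed genes are not reported here. No gene of like pattern outside the 10 is named, since that rule asked for a 2-fold change. Genes overlapping an iron gene are named at 10% of its counts; those named below that were named after their values were seen.

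Replicate numbers come from the labels. Across genes, samples of the same number deviated from the means of their lines with a correlation of 0.14 to 0.29 between K562/SSedit-2 and K562. The correlation fell to 0.00 between K/VP.5 and K562 and to −0.09 between the clones, so these share a number only. The fit behind the quoted values held no replicate block, so K562/SSedit-2 and K562 were compared there as unpaired. With the block no call changed between K562/SSedit-2 and K562. Adjusted p was then 0.00562 for TFRC, 0.00911 for STEAP3 and 3.75e-05 for SLC25A37.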

Additional observations from a re-analysis of the deposited data

Results flagged for a closer look

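Of 30 groups, each 1 iron gene in the 4 samples of 1 line, 3 held a sample far from the others by Dixon's criterion, which chance alone meets in about 1 of 20 groups. All 3 were K562 replicate 1. STEAP3 was at 65.6 CPM there, with the nearest K562 sample at 55.7. FTL was at 2132 CPM, with the nearest at 1149. SLC40A1 was at 73.5 CPM, with the nearest at 54.5.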

How the results depend on the processing

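Each comparison was recomputed under 18 alternatives: other scaling factors (RLE, upper quartile), DESeq2, limma voom, no filter or a filter of 1 CPM in 4 samples, only the compared lines, the replicate block, a threshold of 0.05, pseudogene counts added to the ferritin genes, and each replicate left out. The number of iron genes past 2-fold stayed at 0 under all of them. The number called ranged from 4 to 6 in K/VP.5 against K562, from 2 to 5 in K562/SSedit-2 against K562 and from 3 to 4 between the clones. The 5 came with no filter, where FTH1 (−0.47) and FTL (−0.37) were also called. Their SE was then 0.0810 and 0.0741, against 0.233 and 0.190 with the filter. FTH1 was called in K/VP.5 too with no filter (−0.37). The cause was not tested. Without K562 replicate 1 the first 2 numbers were 4 and 4. With replicate numbers as a block, 5, 3 and 4 genes were called, and SLC11A2 between the clones (0.13) was the only changed call among the 10 genes. The direction turned only for differences that had not passed. TFR2 in K/VP.5 was at 0.0517 with upper-quartile scaling and 0.0071 with the 1 CPM filter, and with no filter IREB2 in K/VP.5 was at −0.0025 and ACO1 in K562/SSedit-2 at −0.012. With replicates left out, the log2 fold change ranged from −0.0529 to 0.0708 for IREB2 and from −0.15 to 0.000307 for ACO1 in K/VP.5, from −0.0269 to 0.12 for ACO1 and from −0.18 to 0.0438 for SLC40A1 in K562/SSedit-2, and from −0.0643 to 0.0317 for STEAP3 and from −0.28 to 0.13 for FTH1 between the clones. Calls for FTL and SLC25A37 in K/VP.5 and STEAP3 in K562/SSedit-2 were lost under the alternatives given with these genes, for SLC25A37 also with no filter (0.17, adjusted p = 0.134), and for FTL also at a threshold of 0.05 (adjusted p = 0.0556). With 4 samples per line, the spread between samples limits what can be seen, most of all for FTH1, and counting error adds to it at lower counts.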
